A study of Mus musculus with 18 samples.

Results

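The 25 genes described here encode the machinery of signalling by GABA and glycine, the fast inhibitory transmitters of the spinal cord. They were chosen by name, as a list of enzymes, transporters, receptor subunits and a scaffold protein, from the 27179 genes with deposited read counts. Mouse embryonic stem cells were differentiated with retinoic acid (RA, 1 µM) and the Hedgehog pathway agonist SAG (0.5 µM), which gives cultures of motor neurons and interneurons, and RNA was sequenced from 18 libraries in 6 groups of 3. Day 2 progenitors came from the line labelled iCre and received no doxycycline (Dox). The day 4 neurons of the iHoxc6, iHoxc8, iHoxc9 and iHoxc10 groups came from lines in which 3 µg/ml Dox, given for the last 48 h, induces 1 Hox gene, Flag-tagged and present as a single copy at the Hprt locus. Day 4 control neurons came from the iHoxc6 line and were grown with RA and SAG but without Dox. The question was how far these genes changed as progenitors became neurons, and whether they differed between neurons given different Hox proteins, the factors that set position along the spinal cord.

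Inhibitory neurons make GABA from glutamate with glutamate decarboxylases, load GABA or glycine into vesicles with a shared vesicular transporter, and clear both from the synapse with plasma membrane transporters. GABA and glycine open chloride channels, the GABA-A and glycine receptors, which are held at synapses by the scaffold gephyrin, while GABA-B receptors act through G proteins. Whether opening of these channels excites or inhibits a neuron depends on its chloride content, which one cotransporter raises and another lowers. Motor neurons receive such input but themselves release acetylcholine, so the receptor genes and the synthesis genes of the list need not come from the same cells.

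Library totals lay between 24498630 and 33168533 counts. Levels are given as CPM, the read count relative to library size after edgeR's TMM scaling, and 3 counts correspond to 0.0883 to 0.122 CPM, a floor for counting error alone. The names of the libraries carry 4 prefixes. Day 2 progenitors and iHoxc8 neurons each had their own prefix, control shared one with iHoxc6, and iHoxc9 shared one with iHoxc10. Only iHoxc6 against control and iHoxc9 against iHoxc10 therefore lie within a prefix. In the other comparisons of day 4 groups, prefix, line and Hox gene cannot be told apart. Dox differs as well wherever a line is compared with control. In control against day 2, day, line and prefix cannot be told apart. Replicate 2 of day 2 gave 5.76% of its counts to 1 gene, and iHoxc8 replicate 2 stood apart from replicates 1 and 3 for some members named below.

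Pan-neuronal and motor neuron markers were higher in control than in day 2 progenitors, and progenitor markers were lower but still present. The summed level of 6 progenitor genes was 666 CPM in day 2 (628 to 738) and 271 CPM in control (194 to 406), with 4 of 6 passing as lower. The summed level of 6 pan-neuronal genes was 408 CPM in day 2 progenitors (271 to 560) and 5498 CPM in control (5302 to 5705), and that of 6 motor neuron genes was 30.4 CPM (19.0 to 44.9) and 553 CPM (543 to 569). Interneuron markers were low beside these sums at day 4 in control. There, 3 V1 genes summed to 1.75 CPM (1.35 to 2.43) and 4 V2b and CSF-contacting genes to 6.70 CPM (6.47 to 6.97). The 5 dorsal interneuron genes (Ptf1a, Lbx1, Gsx1, Lmx1b and Pax8) summed to 1.73 CPM (1.58 to 1.99). Ptf1a, which specifies dorsal inhibitory neurons, had no count in control. In bulk RNA, fewer cells of a type and less RNA per cell cannot be told apart.

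Most members were expressed at low levels. Of the 25 members, 24 were tested, 20 had at least 10 counts in at least 3 libraries, 15 reached a mean of 1 CPM in a group and 5 reached 10 CPM. The member not tested was Glra3, a glycine receptor subunit with no count in any iHox library. Per kilobase of exon, the highest mean level in control neurons was that of Gabbr1, at 31.7 CPM per kb. Gphn followed at 10.7, Slc12a5 at 8.20, Glra1 at 3.22, Slc6a9 at 1.98 and Slc12a2 at 1.57 CPM per kb, and every other member was below 1 CPM per kb.

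Upstream sequence was searched for TTTAT, TAAT and TGATTTAT on both strands, short letters known from homeodomain (TAAT), posterior Hox (TTTAT) and Pbx-Hox (TGATTTAT) binding, over the 250 bases before each RefSeq start site (GRCm38.p6). The table held 30 start sites of 22 members. TTTAT occurred in 10 of these 30 windows (33.3%) against 37.3% of all 32851 windows, TAAT in 13 (43.3%) against 54.9%, and TGATTTAT in 1 (3.3%, Slc6a5) against 0.8%. Matches of the shorter motif can lie within the longest one. Of the members that passed between iHoxc9 and iHoxc10 neurons, Slc32a1, Gabra4, Glra2 and Gabbr2 had the largest absolute log2 fold changes. The windows of Gabra4 and Gabbr2 had 0 TTTAT matches and are not shown. Those of Slc32a1 and Glra2 are shown, with TTTAT in capitals. Slc6a5, which holds the TGATTTAT match, did not pass between iHoxc9 and iHoxc10 (edgeR, adjusted p = 0.0568). Its fitted log2 fold change of -2.58 depends on the prior count, because the gene was near 0 in iHoxc9. Both windows shown lie within the span that RefSeq gives the gene, which extends further upstream than the start site used, and neither holds an exon of that gene in GENCODE M21. The Slc32a1 window is chr2:158610508-158610757, plus strand, with no match. The Glra2 window is chrX:165327394-165327643, minus strand, with 1 match that starts 36 bases before the start site.
Slc32a1: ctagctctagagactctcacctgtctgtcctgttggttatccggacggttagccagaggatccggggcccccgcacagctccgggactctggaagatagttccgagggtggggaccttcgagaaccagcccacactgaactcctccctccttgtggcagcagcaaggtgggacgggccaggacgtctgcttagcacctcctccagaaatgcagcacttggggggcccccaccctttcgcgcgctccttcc
Glra2: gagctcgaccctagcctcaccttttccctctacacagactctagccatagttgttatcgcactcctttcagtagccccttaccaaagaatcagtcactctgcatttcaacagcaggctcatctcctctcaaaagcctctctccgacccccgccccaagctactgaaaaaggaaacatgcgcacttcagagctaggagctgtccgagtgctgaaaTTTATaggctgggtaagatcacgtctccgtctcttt
G and C made up 62.4% of the Slc32a1 window and 50.4% of the Glra2 window, where the median over all windows was 52.4%.

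Both GABA-B receptor genes, 2 of 4 tested glycine receptor genes, the scaffold gene Gphn and the chloride extruder Slc12a5 rose between day 2 progenitors and day 4 control neurons, whereas 1 of 9 GABA-A receptor genes rose and 1 fell, and neither synthesis gene passed. By edgeR's quasi-likelihood test in a fit of all 18 libraries, 11 of 24 members (45.8%) passed an adjusted p under 0.01 (Benjamini-Hochberg), with 9 higher in control and 2 lower, where 42.4% of the 20944 genes tested passed (21.2% higher and 21.2% lower). The share of members was thus near that of all genes. With the fold threshold of the study added, a log2 fold change beyond 2, there were 7 higher and 1 lower, where 12.6% of all genes passed. The median log2 fold change of the 24 members was 0.91, against 0.00 for all genes. Line and prefix also differ between these groups.

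**Figure D1:**
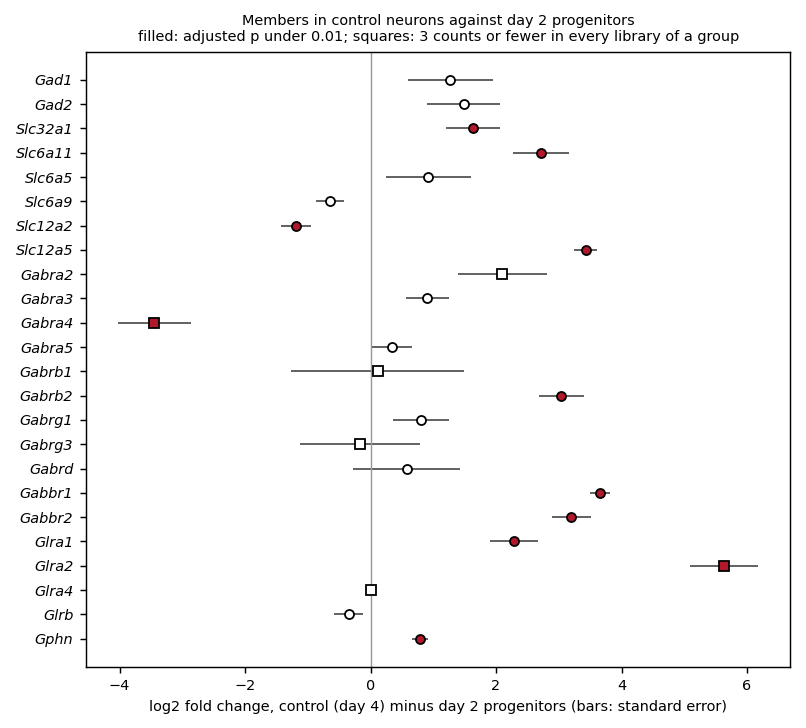
Log2 fold change of the 24 tested members in day 4 control neurons against day 2 progenitors (x axis), with standard errors as bars, filled symbols for an adjusted p under 0.01 and squares for members with 3 counts or fewer in every library of a group. Glra2, Gabbr1 and Slc12a5 lie farthest to the right, and Gabra4 and Slc12a2 are the filled symbols to the left of 0.

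Gabbr1 and Gabbr2 encode the subunits of the GABA-B receptor, both of which are needed for a working receptor. Gabbr1 was at 19.1, 24.8 and 14.7 CPM in the day 2 libraries and at 272, 221 and 246 CPM in control, a log2 fold change of 3.66 (SE 0.17, adjusted p = 4.73e-14). Gabbr2 was at 0.236, 0.433 and 0.219 CPM in day 2 and at 3.44, 2.77 and 1.98 CPM in control (log2 fold change 3.20, SE 0.31, adjusted p = 1.26e-08). All control libraries were above all day 2 libraries for both subunits. Per kilobase of exon, the level in control was 31.7 CPM for Gabbr1 and 0.408 CPM for Gabbr2.

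Slc12a5 (chr2:164960846-164999731) encodes KCC2, the cotransporter that lowers neuronal chloride, and Slc12a2 encodes NKCC1, which raises it. Slc12a5 was at 4.78, 7.79 and 4.40 CPM in day 2 and at 58.9, 64.6 and 59.7 CPM in control (log2 fold change 3.43, SE 0.18, adjusted p = 4.78e-13). Slc12a2 went the other way, from 46.0, 36.2 and 35.2 CPM to 19.0, 18.3 and 14.1 CPM (log2 fold change -1.19, SE 0.24, adjusted p = 0.000173). The groups did not overlap for either gene. The log2 ratio of Slc12a5 to Slc12a2, each as CPM + 1, was -2.62 ± 0.48 (SD, n = 3) in day 2 and 1.79 ± 0.21 (SD, n = 3) in control. The difference was 4.40, with a two-sided exact permutation p of 0.10. Groups of 3 cannot give a smaller p, and over the 5 comparisons made it adjusted to 0.25.

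Among glycine receptor genes, Glra2, the alpha subunit of embryonic receptors, had 3 counts or fewer in every day 2 library and 3.92, 1.39 and 1.76 CPM in control. It was at least 24.0-fold higher in control, with 3 counts taken for each day 2 library (adjusted p = 9.36e-09). Glra1, the alpha subunit of adult receptors, was at 1.55, 2.46 and 0.781 CPM in day 2 and at 8.00, 7.86 and 7.45 CPM in control (log2 fold change 2.28, SE 0.38, adjusted p = 2.18e-05). The beta subunit gene Glrb, whose product binds gephyrin, was at 6.06, 4.86 and 3.03 CPM in day 2 and at 4.34, 2.97 and 3.59 CPM in control. These ranges overlapped, and Glrb did not pass (adjusted p = 0.228). Gphn, which encodes gephyrin, was at 23.1, 20.3 and 26.0 CPM in day 2 and at 42.2, 43.4 and 34.4 CPM in control (log2 fold change 0.79, SE 0.13, adjusted p = 2.64e-05). Glra3 and Glra4 were at or below 0.077 CPM in every library.

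GABA-A receptor subunits did not move together. Gabrb2, a beta subunit gene, was at 0.303, 0.499 and 0.156 CPM in day 2 and at 3.34, 2.46 and 2.06 CPM in control (log2 fold change 3.04, SE 0.36, adjusted p = 2.06e-07). Gabra4, an alpha subunit gene (chr5:71569734-71658308), was at 0.808, 0.732 and 0.531 CPM in day 2 and had 3 counts or fewer in every control library, so that it was at least 6.39-fold lower in control (adjusted p = 2.80e-05). The other 7 subunits tested did not pass. Gabra3 (0.711 and 1.32 CPM in day 2 and control), Gabra5 (0.942 and 1.18) and Gabrg1 (0.400 and 0.689) had mean levels near 1 CPM, and Gabra2, Gabrb1, Gabrg3 and Gabrd stayed at or below 0.299 CPM in both groups. Gabra4 overlaps the start of Gabrb1 on the other strand, and the strand setting of the counting is not given in the sources used here. Further subunit genes are counted with the pathway genes at the end, and the list is not complete.

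Of the genes for synthesis and for transmitter transport, Slc6a11, a plasma membrane GABA transporter gene, was at 0.202, 0.0666 and 0.281 CPM in day 2 and at 1.61, 0.963 and 1.12 CPM in control (log2 fold change 2.72, SE 0.45, adjusted p = 2.37e-05). Slc32a1, which encodes the vesicular transporter of GABA and glycine (chr2:158607260-158615747) and overlaps the antisense gene Gm14204, was at 0.202, 0.166 and 0.250 CPM and at 0.450, 0.693 and 0.823 CPM (log2 fold change 1.63, SE 0.44, adjusted p = 0.00301). The groups did not overlap for either gene, but Slc32a1 no longer passed without day 2 replicate 1 (adjusted p = 0.0122), day 2 replicate 2 (adjusted p = 0.0171) or control replicate 3 (adjusted p = 0.0199). The glutamate decarboxylase genes Gad1 and Gad2 had means of 0.295 and 0.405 CPM in control and 0.121 and 0.145 CPM in day 2, and neither passed (adjusted p = 0.126 and 0.0361). Without day 2 replicate 2, Gad1 passed (adjusted p = 0.00547). Slc6a9, which encodes the glycine transporter GlyT1, was at 11.1, 14.1 and 22.4 CPM in day 2 and at 8.42, 14.2 and 7.90 CPM in control, ranges that overlapped (adjusted p = 0.0191). It passed without day 2 replicate 1 (adjusted p = 0.00287) or control replicate 2 (adjusted p = 0.000835). Slc6a5, which encodes GlyT2, the transporter of glycine-releasing neurons, was at or below 0.337 CPM in both groups.

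Tested against day 2 progenitors, 7 members passed as higher in all 5 day 4 groups, and 16.2% of all genes did so. These were Slc6a11, Slc12a5, Gabrb2, Gabbr1, Gabbr2, Glra2 and Gphn. No member was lower in all 5, where 14.7% of all genes were. The 5 comparisons share the day 2 libraries and are not independent.

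**Figure D2:**
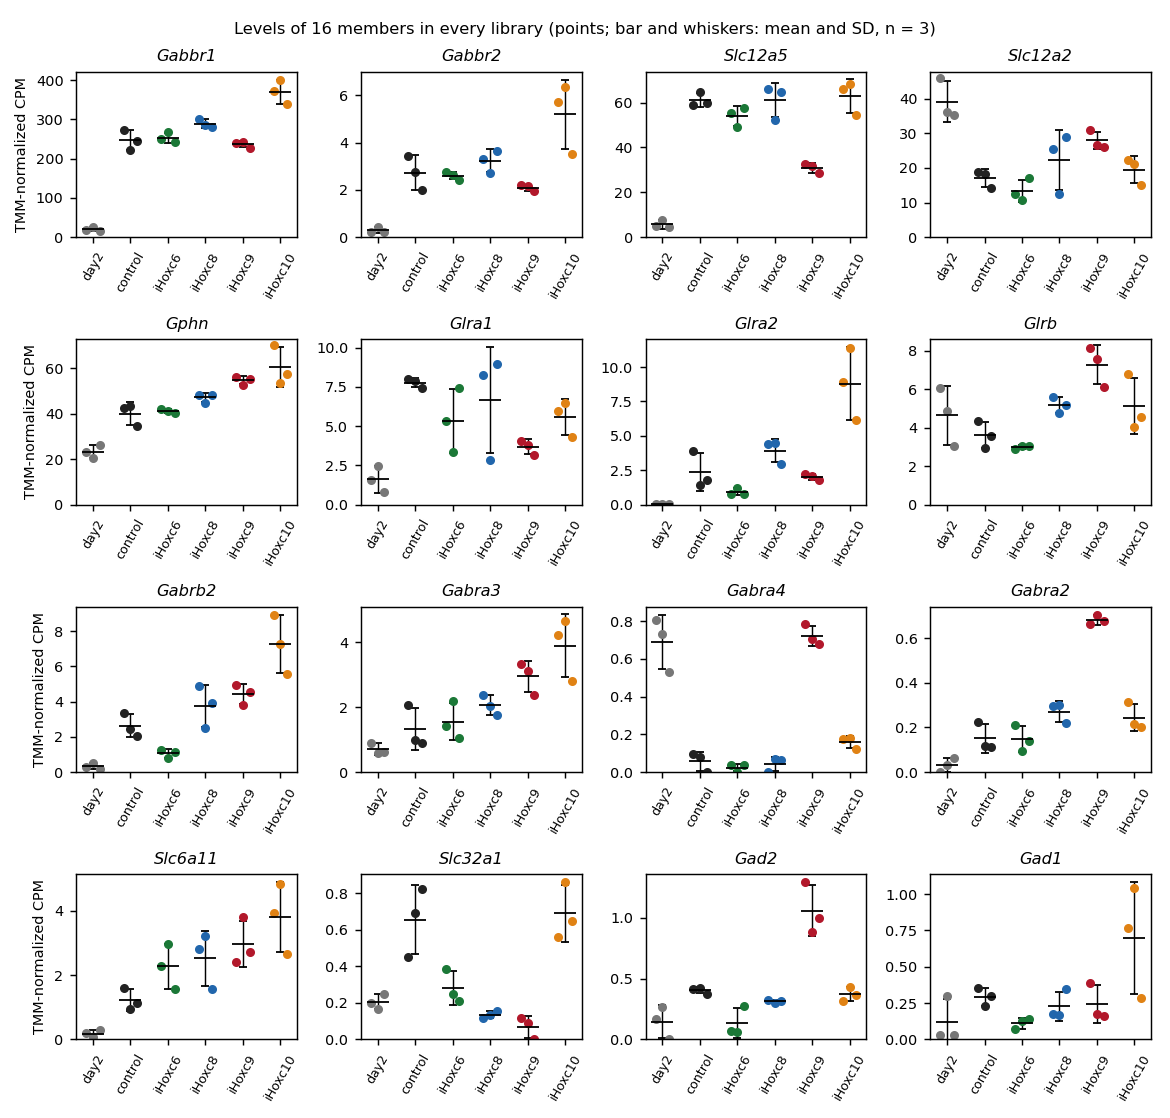
TMM-normalized CPM (y axis, a separate linear scale for each gene) of 16 members in each of the 18 libraries, by group (x axis), with the mean and SD of 3 libraries. Gabbr1, Gabbr2, Slc12a5 and Gphn are higher in every day 4 group than in day 2, iHoxc9 stands lowest of the day 4 groups for Slc12a5, and iHoxc10 stands highest for Glra2 and Gabrb2.

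Against control neurons, the members differed most in number in iHoxc9 and iHoxc10. No member passed in iHoxc6, where 0.587% of all genes did, and 1 passed in iHoxc8, as lower (4.17%; 2.12% of all genes passed and 1.09% as lower). In iHoxc9, 7 of 24 passed (29.2%), 5 higher and 2 lower, where 14.1% of all genes passed (6.95% higher and 7.13% lower). In iHoxc10, 7 passed (29.2%), all higher, where 14.4% of all genes passed and 6.67% passed as higher. Among the 14117 genes with a group mean of at least 1 CPM, 19.7% passed in iHoxc9 and 20.8% in iHoxc10. At the fold threshold of the study, 2 members were higher and 1 lower in iHoxc9 (2.7% of all genes), 1 was lower in iHoxc8 (0.22%), and none passed in iHoxc10 (1.48%), where all 7 lay below a log2 fold change of 2. For the members, the median log2 fold change was -0.50 with Hoxc6, 0.33 with Hoxc8, 0.38 with Hoxc9 and 0.46 with Hoxc10, with medians over all genes between 0.00 and 0.02. These comparisons share the control libraries.

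**Figure D3:**
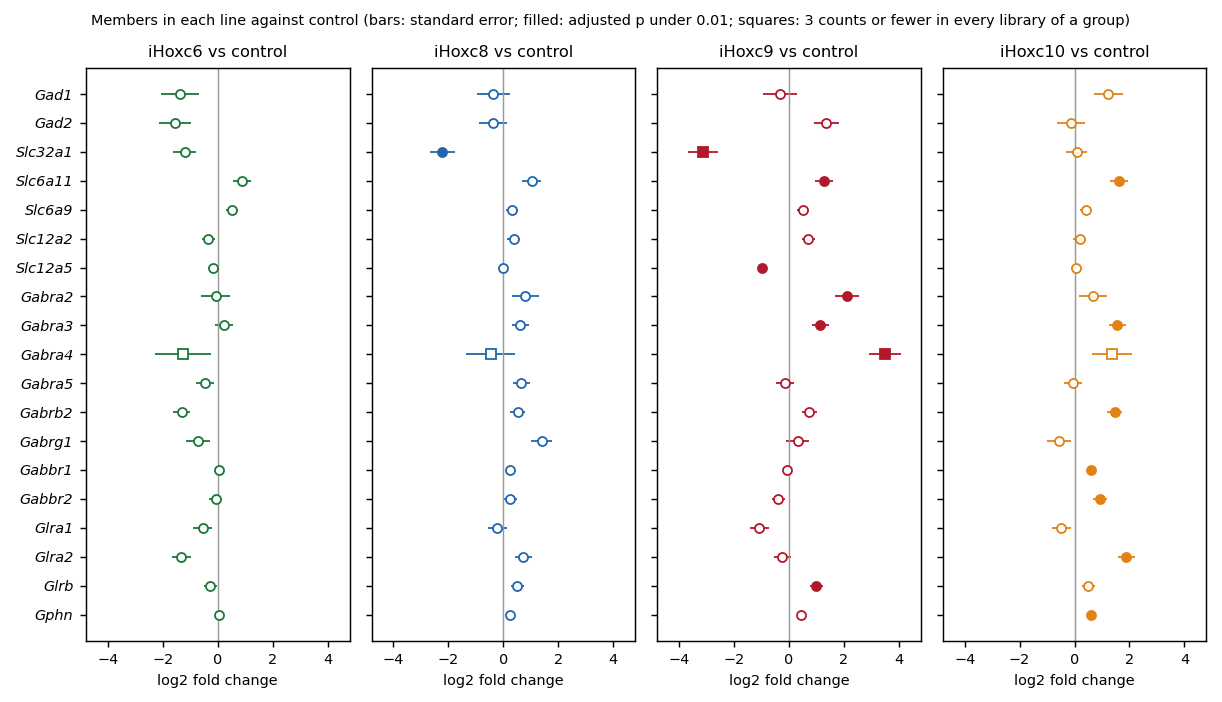
Log2 fold change against control (x axis) of 19 members in iHoxc6, iHoxc8, iHoxc9 and iHoxc10 neurons, with standard errors as bars, filled symbols for an adjusted p under 0.01 and squares for members with 3 counts or fewer in every library of a group. The panel of iHoxc6 has no filled symbol, the panel of iHoxc9 has filled symbols on both sides of 0, and all 7 filled symbols of iHoxc10 lie to the right.

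In iHoxc6 neurons, 8 of 24 members had an unadjusted p under 0.05 by edgeR, as did 21.2% of all genes, and 2 passed with DESeq2's Wald test, which called 2.72% of all genes. These were Gabrb2 and Glra2. Gabrb2 was at 1.25, 0.778 and 1.15 CPM in iHoxc6 against 3.34, 2.46 and 2.06 CPM in control, with no overlap (log2 fold change -1.31, SE 0.31, adjusted p = 0.0246 by edgeR). Glra2 was at 0.802, 1.21 and 0.799 CPM against 3.92, 1.39 and 1.76 CPM (log2 fold change -1.33, SE 0.34, adjusted p = 0.0364 by edgeR), and passed by edgeR without control replicate 2 (adjusted p = 0.00387). This pair of groups comes from 1 line and shares its prefix, so Dox and the Hoxc6 transgene are what the labels say differs.

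Slc32a1 was the one member that passed in iHoxc8 neurons. It was at 0.118, 0.134 and 0.156 CPM, all below the 0.450, 0.693 and 0.823 CPM of control (log2 fold change -2.23, SE 0.46, adjusted p = 0.0062). The call was lost without control replicate 3 (adjusted p = 0.0515) and without iHoxc8 replicate 1 (adjusted p = 0.0453), replicate 2 (adjusted p = 0.0121) or replicate 3 (adjusted p = 0.0284). Replicate 2 differed from the other two iHoxc8 libraries for Slc12a2, at 12.5 CPM against 25.5 and 29.0 CPM, and for Glra1, at 2.80 CPM against 8.25 and 8.98 CPM. Gabrg1, a gamma subunit gene, had its highest mean in iHoxc8, at 1.83 CPM against 0.689 CPM in control, and did not pass (adjusted p = 0.0281).

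In iHoxc9 neurons, the genes for synthesis and for transmitter transport did not move as a group. Slc32a1 was at 0.117, 0.0883 and 0 CPM, at most 3 counts in each library, and was at least 6.05-fold lower than in control (adjusted p = 0.000167). Gad2 was at 1.29, 0.883 and 0.995 CPM against 0.418, 0.424 and 0.374 CPM in control, with no overlap, and did not pass (log2 fold change 1.37, SE 0.45, adjusted p = 0.0315), although it did when the fit held only these groups (adjusted p = 0.00984). Gad1 had means of 0.242 CPM in iHoxc9 and 0.295 CPM in control. Gad2 and Slc32a1 thus had opposite signs, with only Slc32a1 past the threshold. Gad1, the other synthesis gene, had the sign of Slc32a1 and did not pass (log2 fold change -0.31, SE 0.62, edgeR adjusted p = 0.777). Slc6a11 was at 2.43, 3.80 and 2.71 CPM against 1.61, 0.963 and 1.12 CPM (log2 fold change 1.27, SE 0.33, adjusted p = 0.00724). Slc6a5 was at or below 0.0589 CPM in iHoxc9, against a control mean of 0.271 CPM, and did not pass (adjusted p = 0.0382).

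Slc12a5 was lower in iHoxc9 neurons, at 32.8, 31.7 and 28.4 CPM against 58.9, 64.6 and 59.7 CPM in control (log2 fold change -0.98, SE 0.16, adjusted p = 0.00015). Slc12a2 was at 30.9, 26.8 and 26.2 CPM against 19.0, 18.3 and 14.1 CPM, again with no overlap, but did not pass (log2 fold change 0.71, SE 0.23, adjusted p = 0.0316) except in a fit of these groups alone (adjusted p = 0.00584). The log2 ratio of Slc12a5 to Slc12a2 was 0.15 ± 0.08 (SD, n = 3) in iHoxc9, against 1.79 ± 0.21 in control, a difference of -1.64. All 3 iHoxc9 libraries lay below all 3 control libraries, and the exact two-sided permutation p was 0.10, the smallest the design allows (0.25 after adjustment). The iHoxc6 ratio was 1.95 ± 0.22, that of iHoxc8 was 1.49 ± 0.44 and that of iHoxc10 was 1.66 ± 0.14 (SD, n = 3), and each of these overlapped control (exact permutation p = 0.40, 0.30 and 0.50).

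**Figure D4:**
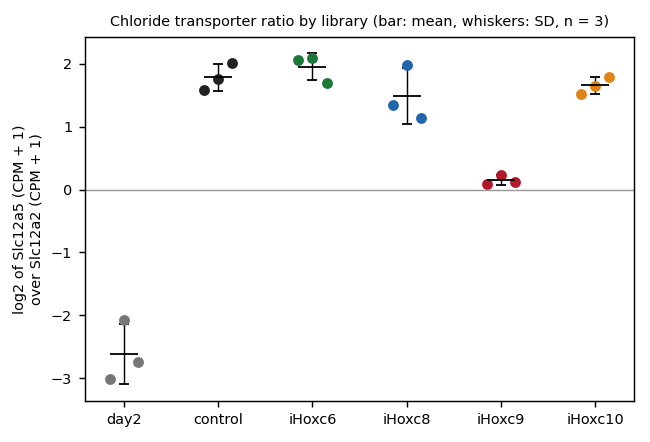
Log2 ratio of Slc12a5 to Slc12a2 (y axis, each gene as CPM + 1) in each library by group (x axis), with the mean and SD of 3 libraries. The iHoxc9 libraries lie between 0.08 and 0.24, above those of day 2 and below those of every other day 4 group.

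Several receptor genes were higher in iHoxc9 neurons. Gabra4 was at 0.782, 0.706 and 0.677 CPM, where control had 3 counts or fewer in each library, and was at least 6.68-fold higher (adjusted p = 0.00013). Gabra2, another alpha subunit gene, was at 0.665, 0.706 and 0.677 CPM against 0.225, 0.116 and 0.112 CPM (log2 fold change 2.12, SE 0.44, adjusted p = 0.00127). Gabra2 and Gabra4 both lie on chromosome 5, and both stayed below 1 CPM. Glrb was at 8.14, 7.59 and 6.13 CPM against 4.34, 2.97 and 3.59 CPM (log2 fold change 1.00, SE 0.23, adjusted p = 0.00309). Gabra3 was at 3.32, 3.12 and 2.39 CPM against 2.06, 1.00 and 0.898 CPM (log2 fold change 1.14, SE 0.31, adjusted p = 0.00969). Neither gene's groups overlapped. Glra1 was at 4.07, 3.80 and 3.14 CPM, below the 8.00, 7.86 and 7.45 CPM of control, and did not pass (log2 fold change -1.08, SE 0.35, adjusted p = 0.0293; in a fit of these groups alone, adjusted p = 0.000693), while Glra2 overlapped control (adjusted p = 0.629). Gabbr1 had means of 237 CPM in iHoxc9 and 246 CPM in control, and its log2 fold change of -0.05 had an SE of 0.15.

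Some calls in iHoxc9 changed with the libraries or the fit. Without control replicate 3, 3 members passed, and without iHoxc9 replicate 2, 4 did. Gabra3 was lost without control replicate 2 or 3 or any 1 of the iHoxc9 libraries (adjusted p from 0.0144 to 0.083), and also with DESeq2's size factors (adjusted p = 0.0119), with a stricter filter of 10 counts in 3 libraries (adjusted p = 0.0116) and with only these groups fitted (adjusted p = 0.0186). Slc6a11 was lost without control replicate 2 or 3 or iHoxc9 replicate 2 or 3 (adjusted p from 0.0177 to 0.0513), Glrb without control replicate 2 or 3 or iHoxc9 replicate 1 or 2 (adjusted p from 0.0119 to 0.0189), and Gabra2 without control replicate 3 (adjusted p = 0.0127). Slc32a1, Slc12a5 and Gabra4 passed with any 1 library left out.

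Markers of cell types moved as well in iHoxc9 neurons. The 6 motor neuron genes summed to 309 CPM (296 to 322) against 553 CPM in control, with 4 of 6 passing as lower. The 4 genes of excitatory V2a and V3 interneurons summed to 45.0 CPM (39.2 to 52.5) against 2.68 CPM (2.23 to 3.44), with 4 of 4 higher, and Sim1, a V3 marker, was at 17.1 CPM against 0.461 CPM. The 4 genes of inhibitory V2b and CSF-contacting interneurons summed to 44.0 CPM (42.9 to 44.6) against 6.70 CPM (6.47 to 6.97), of which 43.4 CPM was Pkd2l1, the 1 gene of the list that was higher. The defining factors Gata2 (0.209 against 0.781 CPM) and Tal1 (0.0855 against 1.45 CPM) passed as lower, and Gata3 was at 0.219 against 0.249 CPM. The 3 floor plate genes summed to 23.1 CPM (15.5 to 35.1) against 61.0 CPM (56.9 to 68.9), with 2 of 3 lower. The dorsal interneuron genes summed to 1.29 CPM (0.743 to 2.24) against 1.73 CPM, of which Ptf1a made up 0.731 CPM in iHoxc9. The 3 V1 genes summed to 2.89 CPM (2.51 to 3.59) against 1.75 CPM, with none passing. The 6 progenitor genes summed to 296 CPM (284 to 305) against 271 CPM (194 to 406), with 2 higher and 1 lower. The 5 glia genes summed to 14.1 CPM (13.8 to 14.3) against 10.9 CPM (7.56 to 12.9), with 1 higher and 1 lower. The part of these cell types in the levels of the members was not tested.

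In iHoxc10 neurons the members that passed were receptor subunits, the scaffold and 1 transporter, all higher than in control. Glra2 was at 8.89, 11.4 and 6.12 CPM against 3.92, 1.39 and 1.76 CPM (log2 fold change 1.89, SE 0.30, adjusted p = 0.000106). Slc6a11 was at 3.92, 4.84 and 2.67 CPM against 1.61, 0.963 and 1.12 CPM (log2 fold change 1.62, SE 0.33, adjusted p = 0.000989). Both genes had every iHoxc10 library above every control library. Gabra3 was at 4.24, 4.66 and 2.80 CPM against 2.06, 1.00 and 0.898 CPM (log2 fold change 1.55, SE 0.31, adjusted p = 0.000842). Gabrb2 was at 8.93, 7.27 and 5.59 CPM against 3.34, 2.46 and 2.06 CPM (log2 fold change 1.47, SE 0.28, adjusted p = 0.0005). These alpha and beta subunits of the GABA-A receptor also showed no overlap.

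The remaining increases in iHoxc10 were below 2-fold. Gabbr2 was at 5.71, 6.34 and 3.52 CPM against 3.44, 2.77 and 1.98 CPM (log2 fold change 0.92, SE 0.24, adjusted p = 0.00708), Gphn at 70.1, 53.3 and 57.6 CPM against 42.2, 43.4 and 34.4 CPM (0.59, SE 0.13, adjusted p = 0.00197), and Gabbr1 at 372, 401 and 339 CPM against 272, 221 and 246 CPM (0.59, SE 0.15, adjusted p = 0.00544). The groups did not overlap for any of these genes. Gad1 had the highest mean of any group in iHoxc10, at 0.698 CPM, but its libraries spread from 0.284 to 1.04 CPM and it did not pass (adjusted p = 0.107). Slc32a1 and Slc12a5 overlapped control (adjusted p = 0.953 and 0.922), with log2 fold changes of 0.08 (SE 0.38) and 0.04 (SE 0.16). Without control replicate 3, iHoxc10 replicate 1 or iHoxc10 replicate 2, 4 members passed. Gabbr1 and Gabbr2 were lost without control replicate 2 or 3 or iHoxc10 replicate 1 or 2 (adjusted p from 0.0136 to 0.0615), Gphn without control replicate 3 (adjusted p = 0.0145) or iHoxc10 replicate 1 (adjusted p = 0.0242), and Slc6a11 without iHoxc10 replicate 2 (adjusted p = 0.0108). In the same neurons the pan-neuronal genes summed to 6954 CPM (6567 to 7512) against 5498 CPM in control, with 2 of 6 passing as higher, and the motor neuron genes to 513 CPM (483 to 545) against 553 CPM, with 2 of 6 lower. The V2b and CSF-contacting genes summed to between 16.1 and 23.3 CPM against a mean of 6.70 CPM, with Pkd2l1 higher and Tal1 lower, the excitatory V2a and V3 genes to 7.92 CPM (5.71 to 11.3) against 2.68 CPM, with 1 of 4 higher, and the V1 genes to 3.14 CPM (2.91 to 3.26) against 1.75 CPM, with 1 of 3 higher. The progenitor genes summed to 207 CPM (197 to 212) against 271 CPM (194 to 406), with 2 of 6 lower. The part of these changes in the levels of the members was not tested.

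Between iHoxc9 and iHoxc10 neurons, which share a prefix, 6 members passed (25%), 5 lower in iHoxc9 and 1 higher, where 4.99% of all genes passed (2.4% lower and 2.6% higher) and 6.98% of those with a group mean of at least 1 CPM. Slc32a1 was at 0.56, 0.86 and 0.648 CPM in iHoxc10 and at least 6.36-fold lower in iHoxc9 (adjusted p = 0.000229). Glra2 was at 2.19, 2.09 and 1.75 CPM in iHoxc9 against 8.89, 11.4 and 6.12 CPM (log2 fold change -2.13, SE 0.31, adjusted p = 5.08e-05). Gabbr2 was at 2.19, 2.15 and 1.95 CPM against 5.71, 6.34 and 3.52 CPM (log2 fold change -1.31, SE 0.25, adjusted p = 0.001). All 3 genes had every iHoxc9 library below every iHoxc10 library. Slc12a5 was at 65.9, 68.5 and 54.5 CPM in iHoxc10 (log2 fold change -1.02, SE 0.16, adjusted p = 0.000179), and Gabbr1 was at 241, 243 and 228 CPM in iHoxc9 (log2 fold change -0.64, SE 0.15, adjusted p = 0.00614). Gabra4 was the member that was higher in iHoxc9, with 0.175, 0.179 and 0.122 CPM in iHoxc10 (log2 fold change 2.15, SE 0.49, adjusted p = 0.00615). Gabra4 was lost without any 1 of the 6 libraries (adjusted p from 0.0177 to 0.0383), and Gabbr1 without any of them but iHoxc10 replicate 3 (adjusted p from 0.0234 to 0.0315). With iHoxc10 replicate 1 or 2 or any 1 iHoxc9 library left out, 4 members passed. Slc6a5 passed without iHoxc10 replicate 3 (adjusted p = 0.00241), the library in which it had no count. Motor neuron genes summed to 309 CPM in iHoxc9 and 513 CPM in iHoxc10, with 4 of 6 lower and 1 higher in iHoxc9, and excitatory V2a and V3 genes to 45.0 and 7.92 CPM, with 4 of 4 higher. Their part in these differences was not tested.

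Against iHoxc6 neurons, 7 members passed in iHoxc9 (29.2%; 11.7% of all genes) and 7 in iHoxc10 (29.2%; 11% of all genes). In iHoxc9, 6 of the 7 were higher than in iHoxc6 (8.02% of all genes), namely Gabra4, Gad2, Gabra2, Gabrb2, Glrb and Slc12a2, and Slc12a5 was lower. Gabra4 had 3 counts or fewer in every iHoxc6 library and was at least 7.17-fold higher in iHoxc9 (adjusted p = 2.20e-05). For iHoxc6 minus iHoxc9, the log2 fold change was -2.93 for Gad2 (SE 0.53, adjusted p = 0.000382), -2.20 for Gabra2 (SE 0.44, adjusted p = 0.00106) and -2.06 for Gabrb2 (SE 0.30, adjusted p = 3.30e-05). It was -1.28 for Glrb (SE 0.24, adjusted p = 0.000442), -1.06 for Slc12a2 (SE 0.24, adjusted p = 0.00262) and 0.80 for Slc12a5 (SE 0.16, adjusted p = 0.00126). Gad2 was at 0.0697, 0.0622 and 0.278 CPM in iHoxc6, below all iHoxc9 libraries. In iHoxc10, all 7 were higher (6.17% of all genes), namely Slc6a5, Glra2, Gabrb2, Gad1, Gabra3, Gabbr2 and Gphn. Slc6a5 had at most 3 counts in each iHoxc6 library and was at least 2.93-fold higher in iHoxc10 (adjusted p = 0.00928), although the groups overlapped, since iHoxc10 replicate 3 had no count. For iHoxc6 minus iHoxc10, the log2 fold change was -3.22 for Glra2 (SE 0.33, adjusted p = 9.15e-07), -2.78 for Gabrb2 (SE 0.30, adjusted p = 1.69e-06) and -2.61 for Gad1 (SE 0.62, adjusted p = 0.00484). It was -1.32 for Gabra3 (SE 0.30, adjusted p = 0.00359), -1.0 for Gabbr2 (SE 0.24, adjusted p = 0.00527) and -0.55 for Gphn (SE 0.13, adjusted p = 0.00459). Glra2 and Gabrb2 passed with any 1 library left out. With 1 library left out, 2 of these 7 passed without iHoxc6 replicate 1 or 3 or iHoxc10 replicate 1, and 3 passed without iHoxc6 replicate 2 or iHoxc10 replicate 2. Against iHoxc9, Gabra2 was lost without iHoxc6 replicate 2 (adjusted p = 0.0152), and Slc12a2 without iHoxc6 replicate 1 (adjusted p = 0.0167), iHoxc6 replicate 2 (adjusted p = 0.0325) or iHoxc9 replicate 1 (adjusted p = 0.0146). Markers moved here too. Excitatory V2a and V3 genes summed to 1.25 CPM (0.973 to 1.57) in iHoxc6, with 4 of 4 higher in iHoxc9 and 2 of 4 in iHoxc10. Floor plate genes summed to 99.2 CPM (77.2 to 126) in iHoxc6, with 3 of 3 lower in iHoxc9, and motor neuron genes to 414 CPM (391 to 444), with 2 of 6 lower and 1 higher in iHoxc9 and 2 of 6 lower in iHoxc10. V1 genes summed to 0.755 CPM (0.560 to 0.976) in iHoxc6, with 1 of 3 higher in iHoxc9 and 2 of 3 in iHoxc10. Pan-neuronal genes summed to 5611 CPM (5570 to 5673) in iHoxc6, with 2 of 6 higher in iHoxc9 and 3 of 6 in iHoxc10. Progenitor genes summed to 264 CPM (205 to 304) in iHoxc6, with 2 of 6 higher and 1 lower in iHoxc9 and 2 of 6 lower in iHoxc10. The part of these markers in the differences was not tested.

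A further 29 genes of GABA and glycine biology, of which 28 were tested, put the members in context. In control against day 2, 12 of 28 were higher and 5 lower (60.7% in all; 42.4% of all genes). The largest changes were in Shisa7, a GABA-A receptor auxiliary protein (log2 fold change 4.02, SE 0.16, adjusted p = 1.30e-14), Nlgn2, the adhesion protein of inhibitory synapses (2.63, SE 0.14, adjusted p = 6.87e-13), and Slc6a13, a GABA transporter gene (-2.56, SE 0.32, adjusted p = 5.21e-07). All 7 genes of receptor clustering and trafficking were higher, whereas 3 of 5 glycine synthesis and cleavage genes were lower and none higher. Abat, which encodes the enzyme that breaks down GABA, was higher than control in all 4 lines. It had a mean of 60.4 ± 9.9 CPM in control, and the iHoxc6, iHoxc8, iHoxc9 and iHoxc10 means were 129 ± 7.5, 161 ± 14, 166 ± 5.1 and 131 ± 3.9 CPM (SD, n = 3), with log2 fold changes of 1.09 (adjusted p = 0.000631), 1.41 (adjusted p = 2.39e-05), 1.46 (adjusted p = 8.98e-07) and 1.12 (adjusted p = 4.23e-05). All 4 lines received Dox, which control did not, and these comparisons share the control libraries. For Abat, Dox and Hox gene therefore cannot be told apart. Abat was the one gene of the 28 that passed in iHoxc6 and in iHoxc8 (3.57% in each, against 0.587% and 2.12% of all genes). In iHoxc9, 3 passed, all higher (10.7%; 14.1% of all genes), and in iHoxc10, 4 were higher and 2 lower (21.4%; 14.4% of all genes), among them Shmt1, a glycine synthesis enzyme (log2 fold change -1.01, SE 0.23, adjusted p = 0.00233). Of the 3 GABA-B auxiliary subunit genes, 1 was higher in iHoxc10, beyond a log2 fold change of 2, and 1 was lower. Between iHoxc9 and iHoxc10, 3 were higher in iHoxc9 and 1 lower (14.3%; 4.99% of all genes). The chloride and potassium cotransporter gene Slc12a4 (log2 fold change 1.10, SE 0.17, adjusted p = 0.000131) and Kctd12, a GABA-B auxiliary subunit gene (1.10, SE 0.19, adjusted p = 0.000418), were higher in iHoxc9, opposite in sign to Slc12a5 and Gabbr1.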

How the data were processed

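The authors aligned reads with STAR (2.7.0c), assigned them to RefSeq genes of mm10 with featureCounts and deposited raw read counts per gene, with replicates in separate columns. Of 27179 genes, 25275 matched a symbol. All 18 columns were used. The members and gene lists were chosen with earlier results of these data known. Counts were tested in R 4.3.3 with edgeR 4.0.16 (TMM, quasi-likelihood test, 1 fit of all 18 libraries with group as the term) with 20944 genes kept by a minimum of 1 count in some iHox library. Standard errors came from the F statistic. The chloride ratio was tested by exact permutation (scipy 1.17.1), with a pseudocount of 1 CPM. Members with a group mean of at least 1 CPM and members that passed were named with values, further members by range or by values chosen after these were seen, and of the other pathway genes at most 3 per comparison that passed and changed by a log2 fold change beyond 1. A pathway gene also had to have a group mean of at least 1 CPM to be named. Abat in iHoxc6 to iHoxc10 met this rule. Coordinates and start sites are from RefSeq (GRCm38.p6) and exon lengths from GENCODE M21.

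Libraries in a group were described in the paper as independent differentiations. The labels number replicates 1 to 3 in every group. Deviations of same-numbered libraries correlated above 0.1 in every pair for iHoxc9 and iHoxc10 (r = 0.557, 0.454 and 0.628 over 14117 genes) and for iHoxc6 and iHoxc9 (r = 0.131, 0.207 and 0.114). They did not for iHoxc6 and iHoxc10 (r = 0.184, 0.23 and -0.039). The main fit did not pair libraries by number, and a replicate block was run as an alternative. That block gives each replicate number 1 effect common to all groups. It therefore cannot represent a pairing that holds for some groups and not for others. Alternatives were DESeq2 1.42.0, its size factors within edgeR, at least 10 counts in at least 3 libraries, only the groups compared, a replicate block, a log2 fold change beyond 1, and each library left out. In counts simulated for all 18 libraries (18596 genes), changes were placed in iHoxc9 and only in genes above a minimum mean count. Against control, edgeR found 70% of 100 genes with a true log2 fold change of 1 and 97% of 100 with 2. The 10 members under 1 CPM in every group lie below that minimum, and so does Gad2, which reached 1.06 CPM in iHoxc9 alone. These shares do not cover any of these members.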

Additional observations from a re-analysis of the deposited data

Results flagged for a closer look

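The difference between lines passed an adjusted p under 0.01 (edgeR, quasi-likelihood test) for 20 values of 15 members, each of them the difference of 2 lines' contrasts with the same control. Of all genes tested, 4.99% passed between iHoxc9 and iHoxc10, 11.7% between iHoxc6 and iHoxc9 and 11% between iHoxc6 and iHoxc10. These comparisons share lines, so the 20 values are not independent, and some members are counted in more than 1 comparison. The share of all genes that passed in any of the comparisons is not given here. Between iHoxc9 and iHoxc10, which share a library-name prefix, the log2 fold change was -3.21 for Slc32a1, -2.13 for Glra2, -1.31 for Gabbr2, -1.02 for Slc12a5, -0.64 for Gabbr1 and 2.15 for Gabra4. Between iHoxc6 and iHoxc9 it was -4.77 for Gabra4, -2.93 for Gad2, -2.20 for Gabra2, -2.06 for Gabrb2, -1.28 for Glrb, -1.06 for Slc12a2 and 0.80 for Slc12a5. Between iHoxc6 and iHoxc10 it was -3.53 for Slc6a5, -3.22 for Glra2, -2.78 for Gabrb2, -2.61 for Gad1, -1.32 for Gabra3, -1.0 for Gabbr2 and -0.55 for Gphn. In the comparisons with iHoxc6 the prefix differs with the line and cannot be told apart from it. The fitted values of Slc32a1 against iHoxc10, Gabra4 against iHoxc6 and Slc6a5 rest on groups with 3 counts or fewer in every library, and against 3 counts per library these differences were at least 6.36-fold, 7.17-fold and 2.93-fold.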

How the results depend on the processing

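Of 46 values of members that passed in control against day 2, in a line against control or between lines, 27 kept their side of the p threshold under the 5 other fits and with each library left out, 19 lost it under at least 1, and none reversed; the added threshold of a log2 fold change beyond 1 is not in this count. When the fit held just the groups compared, the count of members passing moved from 7 to 4 in iHoxc10 against control and from 1 to 0 in iHoxc8 against control, and rose from 7 to 9 in iHoxc9 against control, 6 to 8 in iHoxc9 against iHoxc10, and 7 to 10 in iHoxc6 against iHoxc9 and against iHoxc10. Calls over all genes fell from 3022 to 2238 in iHoxc10, 443 to 174 in iHoxc8 and 2950 to 2543 in iHoxc9 against control. They rose from 1046 to 2205 in iHoxc9 against iHoxc10, 2450 to 6576 in iHoxc6 against iHoxc9 and 2311 to 4936 in iHoxc6 against iHoxc10. With DESeq2 the count of members passing moved from 0 to 2 in iHoxc6 against control and from 1 to 0 in iHoxc8, where DESeq2 gave no adjusted p for Slc32a1. Calls over all genes rose there from 123 to 570 and from 443 to 1336. A log2 fold change beyond 1 left 4 members in iHoxc10. With the replicate block, 0 members passed in iHoxc8 against control (Slc32a1, adjusted p = 0.0109) and Slc6a5 was lost between iHoxc6 and iHoxc10 (adjusted p = 0.0148). Gabbr1 then passed between iHoxc6 and iHoxc10 (adjusted p = 0.00964). The block changed no other call in the comparisons between day 4 groups and of control with day 2. The counts of 6 for iHoxc9 against iHoxc10 and 7 for iHoxc6 against iHoxc9 stayed the same. With each library left out in turn, the counts ranged from 10 to 12 for control against day 2, 0 to 1 for iHoxc6, 0 to 1 for iHoxc8, 3 to 7 for iHoxc9 and 4 to 7 for iHoxc10 against control, 4 to 6 for iHoxc9 against iHoxc10, 5 to 7 for iHoxc6 against iHoxc9 and 2 to 7 for iHoxc6 against iHoxc10. The difference of the chloride ratio between iHoxc9 and control ranged from -1.74 to -1.53. Depth limits the 10 members under 1 CPM in every group. The cause of the lost calls was not tested.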
